A study of Mus musculus with 6 samples.

Results

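The PAF1 complex subunits were the genes Paf1, Ctr9, Leo1, Cdc73, Rtf1 and Wdr61, taken by name and not by any measured value. The 6 symbols were all found among the 29955 genes of the deposited RNA-seq table, and all 6 passed the filter on low counts that left 16378 genes for testing. The study deleted Rnf40, an E3 ligase that monoubiquitinates histone H2B (H2Bub1), and compared primary mouse embryonic fibroblasts (MEFs) with the genotypes Rnf40+/+ and Rnf40-/-, with 3 libraries of each, all at passage 3. In this model loxP sites flank exons 3 and 4 of Rnf40, and the tamoxifen-activated Cre (Cre-ERT2) is expressed ubiquitously from the Rosa26 locus. Deletion was induced with 250 nM 4-hydroxytamoxifen (4-OHT) for 5 days, followed by 3 days without it. According to the methods of the study, MEFs came from embryos homozygous for the floxed allele that carried Cre-ERT2. It is not stated whether the sequenced Rnf40+/+ cells received 4-OHT or vehicle, so the deletion and the treatment cannot be told apart here. Nor do the labels say whether the 3 libraries of a genotype came from separate embryos or cultures, and p-values measure only the spread between these libraries.

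The PAF1 complex travels with elongating RNA polymerase II. It helps polymerase through chromatin, takes part in the release of paused polymerase and in 3' end formation, and is needed upstream of several histone marks of transcribed genes. H2Bub1 is one of these: Rtf1 carries the histone modification domain that stimulates the E2 enzymes Ube2a and Ube2b, which work with the E3 ligase formed by Rnf20 and Rnf40. Deleting Rnf40 therefore removes an enzyme that acts downstream of this complex on chromatin, and the values below give the mRNA of the complex itself in cells with and without that enzyme. They hold no measure of protein, of complex assembly or of the complex on chromatin.

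The subunit genes are scattered over the genome. On mm9, in the GENCODE M1 models, Paf1 (chr7:29177970-29184407, plus strand, 14 exons in its longest coding transcript) and Ctr9 (chr7:118172465-118199891, plus strand, 25 exons) lie on one chromosome. Leo1 (chr9:75289331-75314239, plus strand, 12 exons) and Wdr61 (chr9:54562542-54595757, minus strand, 11 exons) lie on another. Cdc73 (chr1:145445927-145550023, minus strand, 17 exons) spans the longest stretch, and Rtf1 (chr2:119500804-119561143, plus strand, 18 exons) has the next longest.

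Promoter sequences from the RefSeq table (GRCm38.p6) were at hand for 4 of the 6 members, namely Paf1, Leo1, Cdc73 and Rtf1. The 250 bases before the annotated start are printed for Rtf1, the one subunit of the 4 whose mRNA changed, and for Paf1, which lends the complex its name and whose mRNA did not pass the test. They are read 5' to 3' on the strand of the gene, with capitals marking motif letters found on either strand (CCGCCC is GGGCGG, and CTTCCGG is CCGGAAG, read on the other strand).
Rtf1 (chr2:119674818-119675067, plus strand): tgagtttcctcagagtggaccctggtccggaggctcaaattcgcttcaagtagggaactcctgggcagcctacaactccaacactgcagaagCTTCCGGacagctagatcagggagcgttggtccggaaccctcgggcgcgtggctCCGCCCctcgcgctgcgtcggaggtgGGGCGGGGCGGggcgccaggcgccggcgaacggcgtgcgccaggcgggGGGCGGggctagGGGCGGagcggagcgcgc
Paf1 (chr7:28392746-28392995, plus strand): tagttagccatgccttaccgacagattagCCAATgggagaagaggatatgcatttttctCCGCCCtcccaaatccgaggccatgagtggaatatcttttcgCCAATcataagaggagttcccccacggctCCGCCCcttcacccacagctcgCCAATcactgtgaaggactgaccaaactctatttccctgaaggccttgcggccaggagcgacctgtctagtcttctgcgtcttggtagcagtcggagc

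The Rtf1 stretch was 70.4% G and C with 28 CpG dinucleotides, and the Paf1 stretch was 53.6% with 11, against medians of 52.4% and 6 over 32851 promoter stretches of the same length. The letters searched, on both strands, were the CCAAT box (CCAAT), the TATA box (TATAAA), the GC box (GGGCGG), an ETS-type core (CCGGAAG), the cyclic AMP response element (TGACGTCA), an NRF-type site (GCGCATGCG) and a YY-type site (AAGATGGCG). Rtf1 held the GC box 5 times, with a pair of copies sharing 1 base at 73 bases before the start, and the ETS-type core 1 time between 158 and 152 bases before it. Paf1 held 3 CCAAT boxes, beginning 221, 149 and 98 bases before the start, and 2 GC boxes. GC boxes were also present in Leo1, 2 times, and in Cdc73, 1 time, where the stretch was 80.4% G and C. Of all promoter stretches, 32.7% held GGGCGG, 33.8% CCAAT, 12.4% TATAAA, 6.91% CCGGAAG, 1.55% TGACGTCA, 1.45% GCGCATGCG and 0.606% AAGATGGCG. The 4 members held no TATA box, cyclic AMP response element, NRF-type site or YY-type site in these windows. These matches describe letters only.

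Each library held between 17053436 and 26344170 reads on genes, and each member rested on 491 to 2208 reads per library. Levels are given as normalized counts, the reads of a gene divided by the size factor of its library. In Rnf40+/+ replicate 3, the deepest library, the chi-square per gene against the other Rnf40+/+ libraries was 25.6 and 28.3, compared with 7.85 between those. Rnf40 itself had normalized counts of 1278, 1195 and 1096 in Rnf40+/+ and 439, 519 and 487 in Rnf40-/-, a fall that left 40.5% of the transcript (log2 fold change -1.30, SE 0.09, limma adjusted p = 4.25e-07). These are counts over the whole gene and not over the deleted exons.

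Of the 6 subunits, Rtf1 rose and Wdr61 fell in Rnf40-/- MEFs, while Paf1, Ctr9, Leo1 and Cdc73 did not pass the test. Thus 2 of 6 (33.3%) were called at a limma adjusted p under 0.05, where 47.4% of all genes tested were called (23.3% higher and 24.1% lower). The same 2 were the ones whose genotypes did not overlap, against 56.5% of all genes (27.8% higher and 28.7% lower in Rnf40-/-). Before adjustment, Leo1 also had a p just under 0.05 in limma (0.0498). The study called a gene changed from a mean above 15, a p under 0.05 and a log2 fold change of more than 1 in size, and with these limits on the unadjusted p 0 of 6 members passed in limma, in edgeR and in DESeq2, against 9.95% of the genes tested in limma. The median log2 fold change was 0.05 over the members and -0.0035 over all genes, and the median size of the change without regard to sign was 0.12 and 0.33. The members' median was 0.021 without Rnf40-/- replicate 3 and 0.075 without Rnf40+/+ replicate 2. In a culture, fewer cells expressing a subunit and less RNA per cell cannot be told apart.

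**Figure D1:**
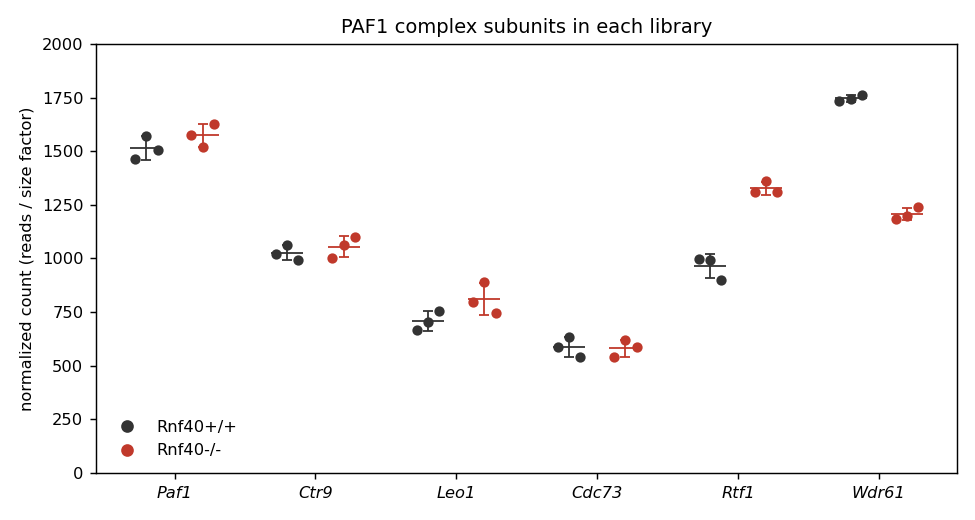
Normalized counts (reads divided by the library's size factor, linear axis from 0) of the 6 subunits in 3 Rnf40+/+ libraries (black) and 3 Rnf40-/- libraries (red), with a horizontal line at the mean and bars of 1 SD. The genotypes are apart for Rtf1 (899 to 998 against 1308 to 1361) and Wdr61 (1732 to 1763 against 1184 to 1238), and they overlap for the other 4.

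Paf1, Ctr9, Leo1 and Cdc73 form the core of the complex together with Wdr61. Paf1, which binds Leo1 directly, had normalized counts of 1464, 1573 and 1506 in Rnf40+/+ and 1574, 1521 and 1625 in Rnf40-/-. The genotypes overlapped, with means of 1514.6 ± 55.2 and 1573.3 ± 52.2 (SD, n = 3 each). In limma the change was 0.05 on the log2 scale (SE 0.07, adjusted p = 0.519), and its 95% interval runs from 0.941-fold to 1.15-fold.

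Ctr9, the tetratricopeptide-repeat scaffold of the complex, had 1020, 1065 and 994 normalized counts in Rnf40+/+ and 1004, 1062 and 1100 in Rnf40-/-. Its highest library was an Rnf40-/- one and its lowest an Rnf40+/+ one, but the others were interleaved. The log2 fold change was 0.04 (SE 0.07, limma adjusted p = 0.67), with an interval of 0.923-fold to 1.15-fold. For both Paf1 and Ctr9 these intervals leave room for changes of up to 1.15-fold, and larger ones lie outside them.

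Cdc73 encodes parafibromin, a tumour suppressor lost in hereditary parathyroid tumours, and it had the lowest normalized counts of the 6. They were 586, 635 and 540 in Rnf40+/+ and 539, 618 and 585 in Rnf40-/-, so that each genotype spanned almost the same range. The log2 fold change was -0.01 (SE 0.09, limma adjusted p = 0.909, 95% interval -0.21 to 0.19). Its sign was not stable: it was 0.04 both without Rnf40+/+ replicate 2 and without Rnf40-/- replicate 1. Of the 6 subunits, Cdc73 alone met the criteria for an unchanged gene, an unadjusted p above 0.8 and a log2 fold change of less than 0.2 in size.

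Leo1, the partner of Paf1 in the complex, had normalized counts of 665, 705 and 756 in Rnf40+/+ and 796, 890 and 747 in Rnf40-/-. The mean was 14.5% higher in Rnf40-/- (709 ± 45.7 against 811 ± 72.8), but Rnf40-/- replicate 3 lay below Rnf40+/+ replicate 3. The log2 fold change of 0.19 (SE 0.09) had an unadjusted p of 0.0498 and an adjusted p of 0.0925 in limma, and was not called. Without Rnf40+/+ replicate 3 it was 0.24 (adjusted p = 0.0433), and the number of members called higher went from 1 to 2. Without Rnf40-/- replicate 2, its highest library, it was 0.12 (adjusted p = 0.329), and it ranged from 0.12 to 0.25 over the libraries left out in turn. With upper-quartile normalization it was 0.24 (adjusted p = 0.0381). Leo1 is thus the one subunit whose call depended on a single library or on the scaling.

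**Figure D2:**
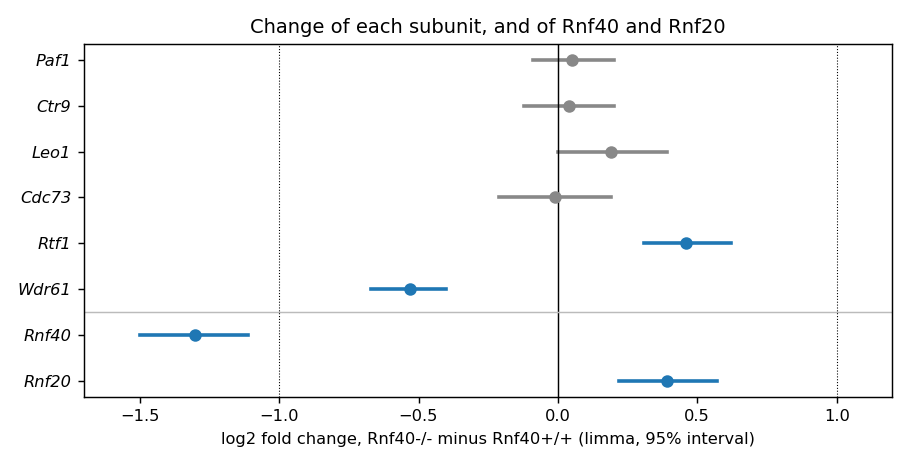
Log2 fold change of each subunit, and of Rnf40 and Rnf20, as Rnf40-/- minus Rnf40+/+ with the 95% interval of limma (blue, adjusted p under 0.05; grey, not past it; dotted lines at 1 and -1). The intervals of Rtf1 (0.31 to 0.62) and Wdr61 (-0.67 to -0.40) lie on opposite sides of 0, and that of Leo1 (0.00017 to 0.39) borders on it.

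Rtf1, the subunit that stimulates H2B ubiquitination and also binds Spt5, was higher in Rnf40-/- MEFs. Its normalized counts were 998, 992 and 899 in Rnf40+/+ and 1308, 1361 and 1311 in Rnf40-/-. Every Rnf40-/- library lay above every Rnf40+/+ one, with means of 963 ± 55.6 and 1326.6 ± 29.8 (SD, n = 3 each). The rise of 37.7% is a log2 fold change of 0.46 (SE 0.07, 95% interval 1.24-fold to 1.53-fold, limma adjusted p = 0.000231). Among all genes tested, 63.2% changed by less than this in either direction. Without Rnf40+/+ replicate 3, the library with the lowest Rtf1 value, the log2 fold change was 0.41 (adjusted p = 0.000287). BLAST of the Rtf1 transcript against mm9 found a pair of unannotated stretches on chromosome 11 with 92.4% identity over 516 bases and 90.5% over 485 bases. The study mapped reads to the transcriptome, so Rtf1 reads could be placed there only if that reference held these stretches. Reads that arise from the stretches may have been counted for Rtf1, and neither share was tested. The other 5 subunits had no such copy of at least 200 bases at 90% identity.

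Wdr61, the WD-repeat subunit that corresponds to yeast Ski8, had the highest normalized counts of the 6 in Rnf40+/+ and fell. The values were 1732, 1744 and 1763 in Rnf40+/+ and 1184, 1199 and 1238 in Rnf40-/-. The Rnf40+/+ libraries differed from each other by a CV of 0.913%, below the 2.13% that counting alone gives at the reads of the deepest of them, and the genotypes were far apart. The means were 1746.2 ± 15.9 and 1206.9 ± 27.8 (SD, n = 3 each), so that 69.1% of the transcript remained. On the log2 scale this was -0.53 (SE 0.06, 95% interval 0.629-fold to 0.760-fold, limma adjusted p = 2.96e-05), and 68.9% of the genes tested changed by less.

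The longest transcript of Wdr61 shares 1581 exonic bases with Dnaja4, a gene for a heat shock protein cochaperone on the opposite strand. The library kit was directional, but the use of strand in counting is not stated, and reads of these bases may have been counted for either gene. Dnaja4, named after its values were seen, had normalized counts of 534, 606 and 560 in Rnf40+/+ and 733, 764 and 756 in Rnf40-/- (log2 fold change 0.41, SE 0.08, limma adjusted p = 0.00131). It thus moved in the opposite direction to Wdr61. No other member shared exonic bases with a gene of another symbol.

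Set against Paf1 in the same library, which needs no size factor, the same pattern was seen. Wdr61 had 1.18, 1.11 and 1.17 reads per Paf1 read in Rnf40+/+ and 0.752, 0.789 and 0.762 in Rnf40-/-. Rtf1 had 0.682, 0.631 and 0.597 in Rnf40+/+ and 0.831, 0.895 and 0.807 in Rnf40-/-. Neither ratio overlapped between genotypes, while those of Ctr9 (0.678 ± 0.0183 and 0.671 ± 0.0308), Leo1 (0.468 ± 0.0296 and 0.517 ± 0.0637) and Cdc73 (0.388 ± 0.0253 and 0.370 ± 0.0329) did. The ratio of Rtf1 to Wdr61 reads was 0.577, 0.569 and 0.510 in Rnf40+/+ and 1.11, 1.13 and 1.06 in Rnf40-/-, a 1.99-fold difference of the means (0.552 ± 0.0365 and 1.10 ± 0.0384). In other words, Wdr61 had more reads than Rtf1 in each Rnf40+/+ library and fewer in each Rnf40-/- library. These reads are not scaled to the length of the genes. Per kilobase, the mean of Wdr61 stayed above that of Rtf1 in Rnf40-/- with each gene length used below. The means were 358 and 284 with the longest coding transcript, and 258 and 231 with the union of exons.

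**Figure D3:**
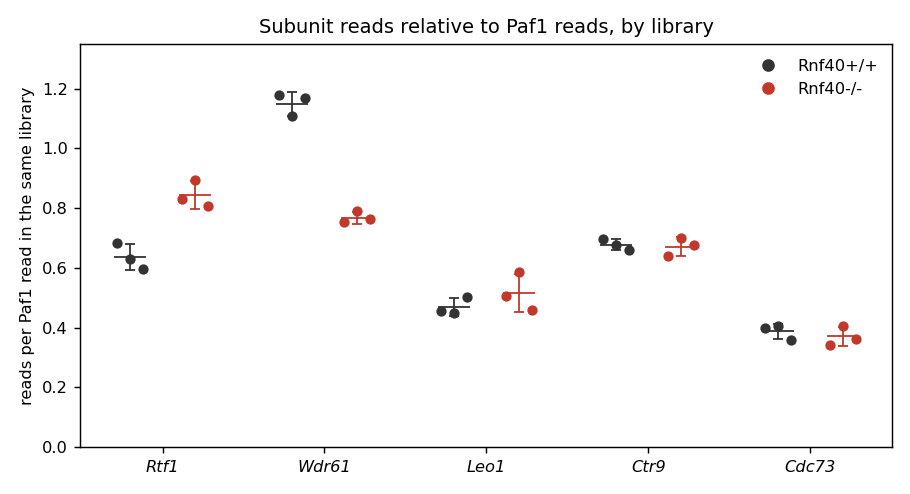
Reads of 5 subunits per Paf1 read of the same library (linear axis from 0) in 3 Rnf40+/+ (black) and 3 Rnf40-/- (red) libraries, with a horizontal line at the mean and bars of 1 SD. The mean ratio goes from 0.637 to 0.844 for Rtf1 and from 1.15 to 0.767 for Wdr61, and the genotypes overlap for Leo1, Ctr9 and Cdc73.

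Because longer transcripts give more reads, levels of different subunits were compared per kilobase of transcript. With the longest coding transcript of each gene, the levels in Rnf40+/+ were 756 ± 27.5 normalized counts per kilobase for Paf1, 518 ± 4.73 for Wdr61, 323 ± 20.8 for Leo1, 239 ± 8.29 for Ctr9, 207 ± 11.9 for Rtf1 and 50.7 ± 4.12 for Cdc73 (SD, n = 3). No neighbours in this order overlapped in Rnf40+/+. In Rnf40-/- Rtf1 (284 ± 6.38) stood above Ctr9 (245 ± 11.2), and Wdr61 (358 ± 8.25) overlapped with Leo1 (370 ± 33.2), while Paf1 (785 ± 26.1) stayed at the top and Cdc73 (50.1 ± 3.40) at the bottom.

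This order rests on the length taken for each gene. The mean of Rtf1 was above that of Ctr9 already in Rnf40+/+ with the union of exons (168 ± 9.7 and 157 ± 5.44). The same held with coding lengths (449 ± 25.9 and 292 ± 10.1). The longest transcript of Cdc73 has 11589 bases, of which 1593 are coding, and per kilobase of coding sequence Cdc73 came to between 339 and 399 in Rnf40+/+, overlapping with Leo1 (332 to 378). Wdr61 has a longest coding transcript of 3372 bases but a first listed one of 1187. With the latter it came to 1470 ± 13.4 per kilobase and ranked first, above Paf1. The changes between genotypes do not depend on these lengths, but sums over the subunits do. The sum of the 6 levels per kilobase was 2093 ± 44.8 in Rnf40+/+ and 2093 ± 28.3 in Rnf40-/- with the longest transcripts. With coding lengths, where Wdr61 weighs more, it was 4493 ± 76.0 and 4111 ± 72.4, and the Rnf40-/- sum was 91.5% of the Rnf40+/+ sum with no overlap. With the longest transcripts, the share of Rtf1 in this sum went from 9.87% ± 0.614 to 13.6% ± 0.235, and that of Wdr61 from 24.7% ± 0.497 to 17.1% ± 0.304.

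**Figure D4:**
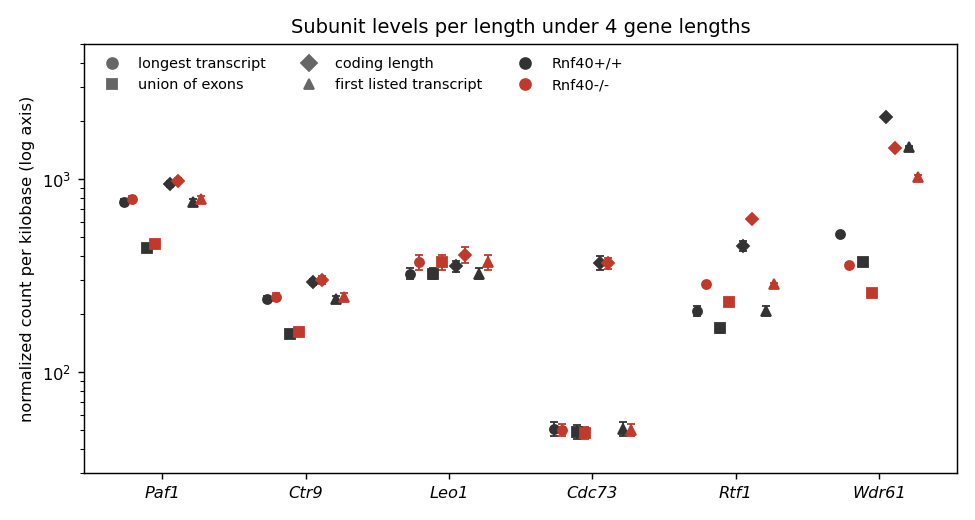
Mean normalized count per kilobase (log axis, bars of 1 SD, n = 3) of the 6 subunits in Rnf40+/+ (black) and Rnf40-/- (red) with 4 gene lengths: longest coding transcript, union of exons, coding length and first listed coding transcript. Cdc73 moves from 50.7 to 369 and Wdr61 from 518 to 2090 between the longest transcript and the coding length in Rnf40+/+. Both genotypes of a gene are divided by the same length, so the rise of Rtf1 and the fall of Wdr61 are the same with each by construction.

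The other genes of the table whose pattern over the 6 libraries was most like that of a subunit were found by the root mean square difference of log2(normalized count + 1), centred for each gene, among 11543 tested genes with a mean above 100. For Rtf1, Ahcyl1 was among these (difference 0.0186, log2 fold change 0.49). For Wdr61 they were the Src-family kinase Fyn (0.0172, log2 fold change -0.54) and the transcription factor Foxp4 (0.0246, -0.53). The nearest genes to Paf1 were Psma3, a proteasome subunit, and Cycs, cytochrome c. Those of Ctr9 were Cct2 and Caml, and those of Cdc73 were Ngly1 and Pppde1. Leo1, which had the largest CV of the 6 in Rnf40-/- (8.98%), had its nearest gene, Manba, at a larger distance (0.0346). These distances are not scaled to the spread of each gene, so they do not rank how close the matches are. These likenesses were not tested.

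The factors that the complex works with were read from 6 lists with 57 genes, all of which were tested. Of these, 23 were higher and 10 lower in Rnf40-/- (57.9% called, beside 47.4% of all genes), with a median log2 fold change of 0.08. Genes named beyond the largest rise and fall of each list were named after their values were seen.

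In the H2B ubiquitination machinery, 3 of 5 genes rose and 1, Rnf40, fell. Rnf20, the partner of Rnf40 in the ligase, had normalized counts of 1619, 1777 and 1437 in Rnf40+/+ and 2090, 2136 and 2098 in Rnf40-/-. Its log2 fold change was 0.39 (SE 0.08, limma adjusted p = 0.00152), next to 0.46 for Rtf1. The E2 enzymes that Rtf1 stimulates rose as well, Ube2a by 0.32 (adjusted p = 0.00836) and Ube2b by 0.21 (adjusted p = 0.00999). Without Rnf40-/- replicate 1, the number of genes of this list that rose was 2, with Rnf20 still called (limma adjusted p = 0.00829). Wac, an adaptor between the ligase and polymerase, had a log2 fold change of -0.06 (adjusted p = 0.608).

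The Ski complex, which shares Wdr61 with the PAF1 complex and feeds mRNA to the cytoplasmic exosome, has 2 further subunits. The helicase Skiv2l had normalized counts of 1547, 1489 and 1550 in Rnf40+/+ and 2128, 2115 and 2008 in Rnf40-/-, so that it rose (log2 fold change 0.45, SE 0.06, limma adjusted p = 0.000117) while Wdr61 fell by 0.53. Ttc37, its scaffold, had 997, 926 and 977 in Rnf40+/+ and 822, 891 and 867 in Rnf40-/-. Its genotypes did not overlap, but the log2 fold change of -0.17 (SE 0.07) had an adjusted p of 0.0757 and was not called.

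Among 18 pausing and elongation factors, 6 rose and 3 fell, with a median log2 fold change of 0.04. The largest rise was in Ccnt1, a cyclin of P-TEFb (0.48, adjusted p = 0.00536). Ccnt2, another such cyclin, had more normalized counts in Rnf40+/+ (mean 934 against 181) and was not called (0.11, adjusted p = 0.205). Their kinase Cdk9 had -0.07 (adjusted p = 0.389). Besides Ccnt1, Supt5h (0.30), the partner of Rtf1 on polymerase, and Supt6h (0.36) rose. So did the elongation kinases and cyclin Cdk12 (0.41), Cdk13 (0.47) and Ccnk (0.38). The 3 that fell were both subunits of the histone chaperone FACT, Ssrp1 (-0.48, adjusted p = 8.44e-05) and Supt16h (-0.45), and the NELF subunit Rdbp (-0.37).

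Of 12 genes of the histone methyltransferases that act on transcribed chromatin, 7 rose and 4 fell (median 0.21). Mll1, an H3K4 methyltransferase, had the largest rise (0.76, adjusted p = 3.68e-06). The 4 that fell were the shared or associated H3K4 methyltransferase subunits Dpy30 (-0.43, adjusted p = 0.0063), Ash2l (-0.31), Men1 (-0.33) and Cxxc1 (-0.23, adjusted p = 0.0438). Wdr5 (0.44) and Rbbp5 (0.37), subunits of the same enzymes, rose. Wdr82 also rose, near the threshold (0.18, adjusted p = 0.0449). Leaving out Rnf40+/+ replicate 1, Rnf40+/+ replicate 3 or any one of the Rnf40-/- libraries gave 6 that rose and 3 that fell.

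Of 8 cleavage and polyadenylation factors, 3 rose and 1 fell (median -0.04), led by Cpsf3, the endonuclease (0.56, adjusted p = 2.10e-05), and Cpsf4 (-0.53, adjusted p = 0.00116). The number that rose was 1 without Rnf40-/- replicate 1 and without Rnf40-/- replicate 3, and the number that fell was 2 without Rnf40+/+ replicate 1 and without Rnf40-/- replicate 3. Of 12 RNA polymerase II subunits, 3 rose and 1 fell (33.3% called, median 0.07). Polr2l rose by 0.43 (adjusted p = 0.00126). The number of subunits that rose was 2 on leaving out any one of the Rnf40-/- libraries. The fall of Polr2g (-0.22, adjusted p = 0.0344) was lost as a call on leaving out Rnf40+/+ replicate 1 or any one of the Rnf40-/- libraries (-0.24 to -0.16, adjusted p 0.0527 to 0.13). The number of subunits that fell was 0 without Rnf40+/+ replicate 1, Rnf40-/- replicate 2 or Rnf40-/- replicate 3, and 2 without Rnf40+/+ replicate 2.

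**Figure D5:**
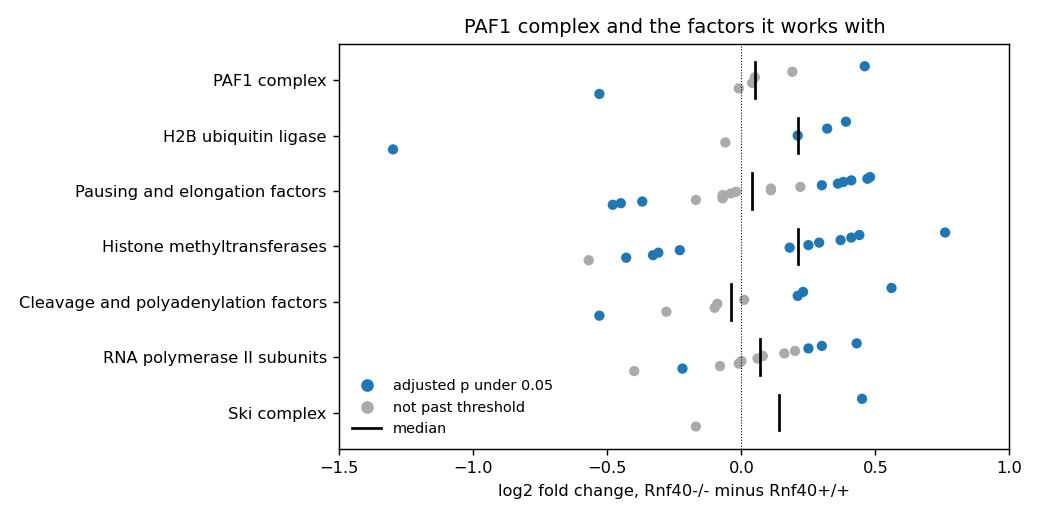
Log2 fold change, Rnf40-/- minus Rnf40+/+, of each tested gene of the PAF1 complex and of 6 lists of its partner factors (blue, limma adjusted p under 0.05; grey, not past it), with a black line at the median of each list. Medians lie between -0.04 and 0.21, and each list but the Ski complex holds genes called in both directions.

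Several markers of cell types differed between genotypes in these libraries, where 47.4% of all genes tested were called. Of 10 fibroblast markers, all detected, 8 were lower in Rnf40-/-, and their summed normalized counts were 669465 to 741504 in Rnf40+/+ and 400462 to 403413 in Rnf40-/-. Of 5 endothelial markers 3 were higher (sums of 58.1 to 148 and 189 to 285). Tek, which was not called, was at 115, 11.2 and 16.0 in Rnf40+/+ replicates 1, 2 and 3. Of 6 macrophage markers Ptprc and Cd14 were higher and Lyz2 was lower. Most of the macrophage sums (4868 to 8789 and 3226 to 3529) was Lyz2. It had normalized counts of 3945, 4557 and 7440 in Rnf40+/+ and 2318, 2093 and 2383 in Rnf40-/-. Of 6 epithelial markers 3 could be tested, with limma adjusted p-values from 0.276 to 0.882 (sums of 33.7 to 107 and 39.7 to 64.2). Of 5 skeletal muscle markers only Des could be tested and was lower (sums of 118 to 434 and 29.2 to 46.3). Des was at 431, 126 and 114 in Rnf40+/+ replicates 1, 2 and 3. Myod1 was at 0 in every library. The summed normalized counts of the 6 PAF1 complex subunits were 6459 to 6714 in Rnf40+/+ and 6407 to 6651 in Rnf40-/-. The part of the marker changes in the values of Rtf1 and Wdr61 was not tested.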

How the data were processed

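The deposited table holds 1 signal value per gene and library, a normalized count that the authors made by mapping reads to the mouse transcriptome (mm9) and dividing by DESeq size factors. The submitters' processing notes name Bowtie2 (2.1.0) and DESeq (1.14.0), and the counting tool and its use of strand are not given in the sources used here. Dividing by the value of 1 read gave whole numbers for 100% of positive values (tolerance 0.001), and reads were recovered in this way. Of 29955 genes, 7410 had no read in any library, and filterByExpr of edgeR (4.0.16) left 16378.

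Genotypes were compared on log2(normalized count + 1) with a limma-trend fit (3.58.1) without covariates, and p-values were adjusted by Benjamini-Hochberg over the 16378 genes. With a pseudocount of 1, folds of low genes are understated. An exact permutation test of 3 against 3 libraries cannot go below 0.1 and none was run. Gene models were GENCODE M1, and transcripts were compared with the genome by BLAST (2.17.0). Fits were tested on simulated data.

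The members, the gene lists and the tests were chosen with earlier results of these data known. Named genes were the 6 members, Rnf40 and Rnf20, the largest rise and largest fall called in each list, and the 2 genes with the most similar pattern to each member. For Leo1, the one of these that is listed by a sequence accession is not named, and for Rtf1 one of them is not reported here. Alternatives were size factors of DESeq2 (1.42.0) and upper-quartile normalization, the edgeR and DESeq2 tests on recovered reads, other filters and pseudocounts, the replicate number as a block, the omission of each library and other gene lengths.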

Additional observations from a re-analysis of the deposited data

How the results depend on the processing

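The calls of Rtf1 and Wdr61 kept their direction and their side of the threshold under all 16 alternatives (Rtf1 0.41 to 0.51, adjusted p 9.14e-07 to 0.00242; Wdr61 -0.55 to -0.48, adjusted p 3.04e-10 to 0.000511). Paf1, Ctr9 and Cdc73 were called under none (Cdc73 -0.074 to 0.044 with 1 library left out), though the log2 fold change of Cdc73 turned positive with upper-quartile normalization (0.033), without Rnf40+/+ replicate 2 (0.044) and without Rnf40-/- replicate 1 (0.038). Upper-quartile normalization moved the number of members called higher from 1 to 2 and their median log2 fold change from 0.048 to 0.096, while the median of all genes went from -0.0035 to 0.044. It also raised the share of higher among called genes from 49.1% to 54.9%. When 1 library was left out, the members' median was 0.021 to 0.075, 1 to 2 members were called higher and 27 to 33 genes of the 6 lists were called. Polr2g was not past the threshold in 6 of 16 alternatives (-0.26 to -0.16 over all 16). Called RNA polymerase II subunits that fell numbered 0 with upper-quartile normalization and with the DESeq2 test. The causes of these differences were not tested. The summed level of the subunits per kilobase in Rnf40+/+ was 2093 with the longest transcript, 1511 with the union of exons, 4493 with the coding length and 3046 with the first listed transcript. The last pair of lengths was added after the data were seen.

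Libraries of the same replicate number did not deviate together: the correlations of their deviations from the genotype means over 16378 genes, which are not independent, were 0.0118, 0.0174 and 0.0212, so the numbers were not taken to pair the libraries. With a replicate block 2 members and 36 genes of the 6 lists were called, against 2 and 33 without it, and the median log2 fold change of the members was 0.048. With the block the called cleavage factors and polymerase subunits that fell went from 1 to 2 each. No library correlated best with the one of its own number.

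Each member had at least 491 reads per library, and counting alone gives a CV of up to 4.51% at the lowest of these counts, so depth is part of the spread. With 3 libraries per genotype, the 95% intervals of Paf1 and Ctr9 still hold changes of up to 1.15-fold and that of Leo1 up to 1.31-fold.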
